A study of Mus musculus with 24 samples.

Results

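The 35 genes described here are markers and working parts of macrophages and related myeloid cells, read in the jaws of mouse embryos at embryonic day 13.5. They were chosen by name, and each was read from the brightest probe set that the platform annotation assigns to its symbol alone, taken over 24 arrays. They stand among 18194 genes so represented, of which 13850 passed a filter on low values (above the 40th percentile of the array on at least 3 arrays). Of the 35 genes, 34 passed. Itgam, the alpha chain of the complement receptor integrin CD11b, passed on 0 arrays and was not tested.

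The arrays came from embryos of matings between Wnt1cre;Tgfbr2fl/+ and Tgfbr2fl/fl mice on a background labelled C57B6. Mutants were those with a cleft palate and a calvarial defect, labelled Tgfbr2_Knockout, and controls were littermates whose Cre status is not given. From this cross every embryo, control or mutant, inherits a floxed Tgfbr2 allele from the Tgfbr2fl/fl parent. Tissue came from the distal or proximal end of either jaw, which gave 8 groups of 3 arrays by genotype, jaw and end. The labels do not say that replicates are separate animals or whether embryos were pooled, so p-values here weigh differences against a sample-to-sample spread that may be partly technical. Arrays of the 4 regions with 1 genotype and 1 replicate number form a set, and there were 6 sets.

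Macrophages are the resident phagocytes of embryonic tissue. They engulf dying cells and take part in the remodelling of vessels and skeleton. They descend from yolk sac and fetal liver progenitors and not from the neural crest, the lineage that Wnt1cre marks and that forms most of the jaw mesenchyme. The transcription factor PU.1 (Spi1) and the receptor for colony stimulating factor 1 (Csf1r) establish and maintain them. Their products include the complement protein C1q, Fc receptors with the signalling chains Fcer1g and Tyrobp, Toll-like receptors that sense microbes, and lysosomal enzymes such as lysozyme and cathepsin S.

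All values are log2 intensities on the scale of the robust multi-array average (RMA), and differences are mutant minus control unless stated. Gene calls were made with limma at an adjusted p under 0.05 over the 13850 genes. The mesenchyme marker Prrx1 lay between 13.20 and 13.73 on every array, and Hand2, a mandibular gene, was 4.36 ± 0.227 higher (SE) in mandible than in maxilla. Tgfbr2 read 0.31 ± 0.0543 higher in mutants, with probe positions relative to the deleted exons unknown, so it checks neither the deletion nor the labels. Some libraries stood apart. The Gapdh 3' minus 5' difference, which rises as RNA degrades, was 0.25 to 0.77 in mutant sets 1 and 3 and between -0.07 and 0.16 in the other sets. Mutant sets 2 and 3 held both Xist, the transcript of the inactive X chromosome (means of 13.52 and 13.19), and Y-linked transcripts (8.81 and 9.20), which no control set did. Some results are also given with mutant set 2 as the only mutant set, which leaves 1 array in each mutant group. Other counts changed in that fit too and are not given, so a result without such a value need not hold there. The part of RNA quality or sex in the results was not tested. In bulk tissue fewer cells of a type and less RNA per cell cannot be told apart.

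The first question was whether the genes fell together in mutants or whether single genes fell. Averaged over the 4 regions, 15 of 34 were lower, 3 were higher (Cx3cr1, Ctss and Laptm5) and 16 were not called. With mutant set 2 as the only mutant set 13 were lower and 1 higher. In the test on all sets 15.5% of all genes were lower and 18.3% higher. The median difference of the 34 was -0.15, against 0.02 over all genes. With arrays centred on their medians 16 were lower and 1 higher, while all genes went from 2142 lower and 2529 higher to 2790 lower (20.1%) and 1917 higher (13.8%). The arrays of a set may share an origin, which the labels leave unstated, so the test was repeated with the set as a random block. Then 7 genes were lower (6.07% of all genes were) and 0 were higher (5.57% of all genes), with 0 higher also at an unadjusted p under 0.05. With 1 value per set, 3 against 3, limma called 2 lower (0.267% of all genes), Clec4a3 and Lyz2, and 0 higher (0.310%), with 13 lower and 3 higher at an unadjusted p under 0.05.

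**Figure D1:**
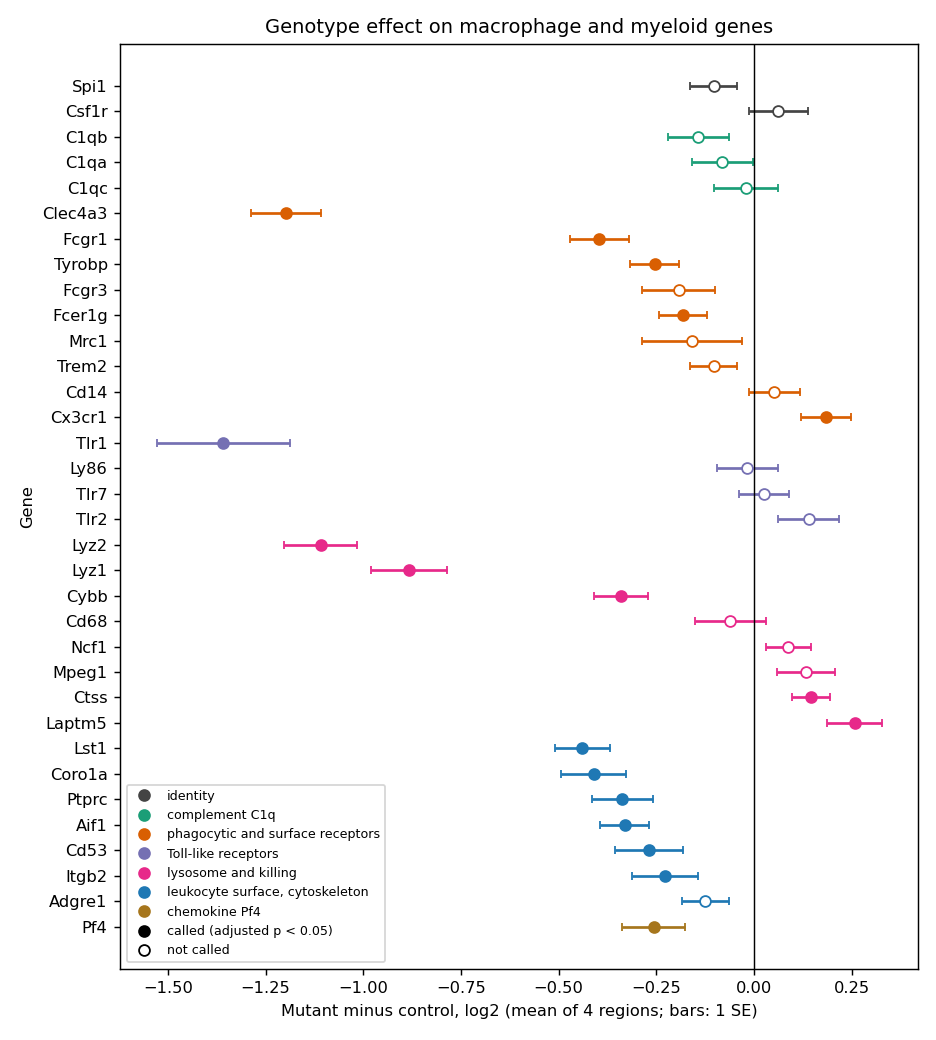
Mutant minus control difference of the 34 tested genes, averaged over the 4 regions, on the log2 axis (points, estimate; bars, 1 standard error; filled points, called at adjusted p under 0.05), grouped and coloured by role. Tlr1, Clec4a3, Lyz2 and Lyz1 lie between -1.36 and -0.88, and the other 30 genes lie between -0.44 and 0.26.

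The 4 genes that fell most were Tlr1, Clec4a3, Lyz2 and Lyz1. Tlr1 encodes a receptor that pairs with Tlr2 to sense bacterial lipopeptides. Clec4a3 encodes a C-type lectin receptor of myeloid cells. Lyz2 and Lyz1 encode lysozymes, enzymes that cut bacterial cell walls. Lyz2 is the form of macrophages and neutrophils, and Lyz1 is the form best known from Paneth cells of the gut. Counted from the largest fall among all 13850 genes, Tlr1 took place 1, Clec4a3 place 6, Lyz2 place 7 and Lyz1 place 12, and the next of the 35 genes, Lst1, took place 122. The places of Tlr1 and Clec4a3 rest on mutant values below the filter percentile on every mutant array.

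Lyz2 differed in every region without overlap. In the distal mandible its control arrays read 9.21, 9.56 and 9.74 and its mutant arrays 8.22, 8.22 and 8.53. In the proximal mandible Lyz2 read 10.41, 10.32 and 10.51 in controls and 9.06, 9.09 and 9.32 in mutants. Every mutant array was below every control array of its region, and within each genotype the distal mandible had the lowest mean. Distal maxilla arrays read 9.79, 10.25 and 10.30 for control Lyz2 and 8.45, 9.25 and 9.30 for mutant Lyz2. Proximal maxilla arrays read 9.86, 10.24 and 10.13 against 9.20, 9.14 and 9.23. The average difference was -1.11 ± 0.0945 (SE), a level 0.464 times that of controls (adjusted p = 3.57e-07, 0.000284 with the random block and 0.0282 with 1 value per set).

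Lyz1 showed the same separation. Its control arrays read 10.18, 10.62 and 10.64 in the distal mandible, with mutant arrays at 9.47, 9.21 and 9.79. In the proximal mandible Lyz1 read 11.41, 11.28 and 11.52 in controls and 10.21, 10.18 and 10.65 in mutants. Lyz1 was lower on all mutant arrays there, as it was in the maxilla. The distal maxilla held 10.93, 11.26 and 11.32 in controls and 9.94, 10.38 and 10.75 in mutants. The proximal maxilla held 10.94, 11.35 and 11.12 in controls and 10.54, 10.27 and 10.59 in mutants. The average Lyz1 difference was -0.88 ± 0.0982 (adjusted p = 4.94e-06, and 0.0544 with 1 value per set). A second Lyz1 probe set above the filter gave -0.83. Both are of the type (_x_at) that may bind other transcripts, and the Lyz1 probe set that is not of that type was above the filter percentile on 0 arrays and gave -0.14. Lyz1 and Lyz2 are neighbouring paralogues, and how far their probe sets read each other's transcript is uncertain. They are counted separately in all counts here, and their differences may not be separate measurements.

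Clec4a3 and Tlr1 passed the filter through control arrays alone. Clec4a3 was above the 40th percentile on 6 control and 0 mutant arrays, and Tlr1 on 10 control and 0 mutant arrays. With no filter limma called both as well (adjusted p = 6.24e-08 for Clec4a3 and 1.71e-05 for Tlr1). Clec4a3 read 6.08, 6.05 and 5.85 in control and 5.28, 4.73 and 4.99 in mutant distal mandible. In the proximal mandible Clec4a3 read 6.50, 6.12 and 6.51 in controls and 5.09, 4.80 and 4.93 in mutants. The mutant arrays stayed below the control arrays in the maxilla too. Distal maxilla arrays read 6.76, 6.81 and 6.38 for control Clec4a3 and 4.98, 5.52 and 5.44 for mutant Clec4a3. Proximal maxilla arrays read 6.18, 6.61 and 5.97 in controls and 5.11, 5.34 and 5.23 in mutants. The average Clec4a3 difference was -1.20 ± 0.089 (adjusted p = 6.98e-08, 0.000333 with the random block and 0.00567 with 1 value per set). Over all regions its highest mutant array (5.52) was below its lowest control array (5.85).

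Tlr1 had the largest average difference and the widest spread of the 4. In the distal mandible it read 5.72, 6.32 and 6.60 in controls and 5.04, 4.87 and 5.52 in mutants. Its proximal mandible arrays read 6.63, 6.69 and 7.16 in controls and 5.42, 5.12 and 5.49 in mutants. Control replicate 1 gave the lowest control value in each of the 4 regions. In the distal maxilla Tlr1 read 6.50, 7.70 and 7.68 in controls and 5.52, 5.90 and 6.27 in mutants. The proximal maxilla gave 6.29, 7.44 and 7.51 in controls and 5.27, 5.65 and 5.89 in mutants. The mutant arrays were below the control arrays in every region, and the average difference was -1.36 ± 0.171 (adjusted p = 1.5e-05, 0.000986 with the random block and 0.065 with 1 value per set). Tlr1 was not called in the distal mandible alone (-1.07, adjusted p = 0.132), and Lyz1 not in the proximal maxilla alone (-0.67, adjusted p = 0.0506).

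Of the 35 genes, these 4 were the ones with all mutant arrays below all control arrays in all 4 regions, a separation that 2.95% of all genes showed. A fall of at least 1.5-fold that was also called was seen in the same 4 genes and in 0.325% of all genes. Tlr1, Clec4a3 and Lyz2 were below 0.5 of the control level, as were 0.0650% of all genes. Tlr1 and Clec4a3 are among the filtered genes only through their control arrays, so for them these shares are a description and not support. With mutant set 2 alone against the controls, Lyz2 differed by -1.10, Lyz1 by -1.04, Clec4a3 by -1.22 and Tlr1 by -1.47, and all 4 stayed called, as they did when each replicate was left out in turn.

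**Figure D2:**
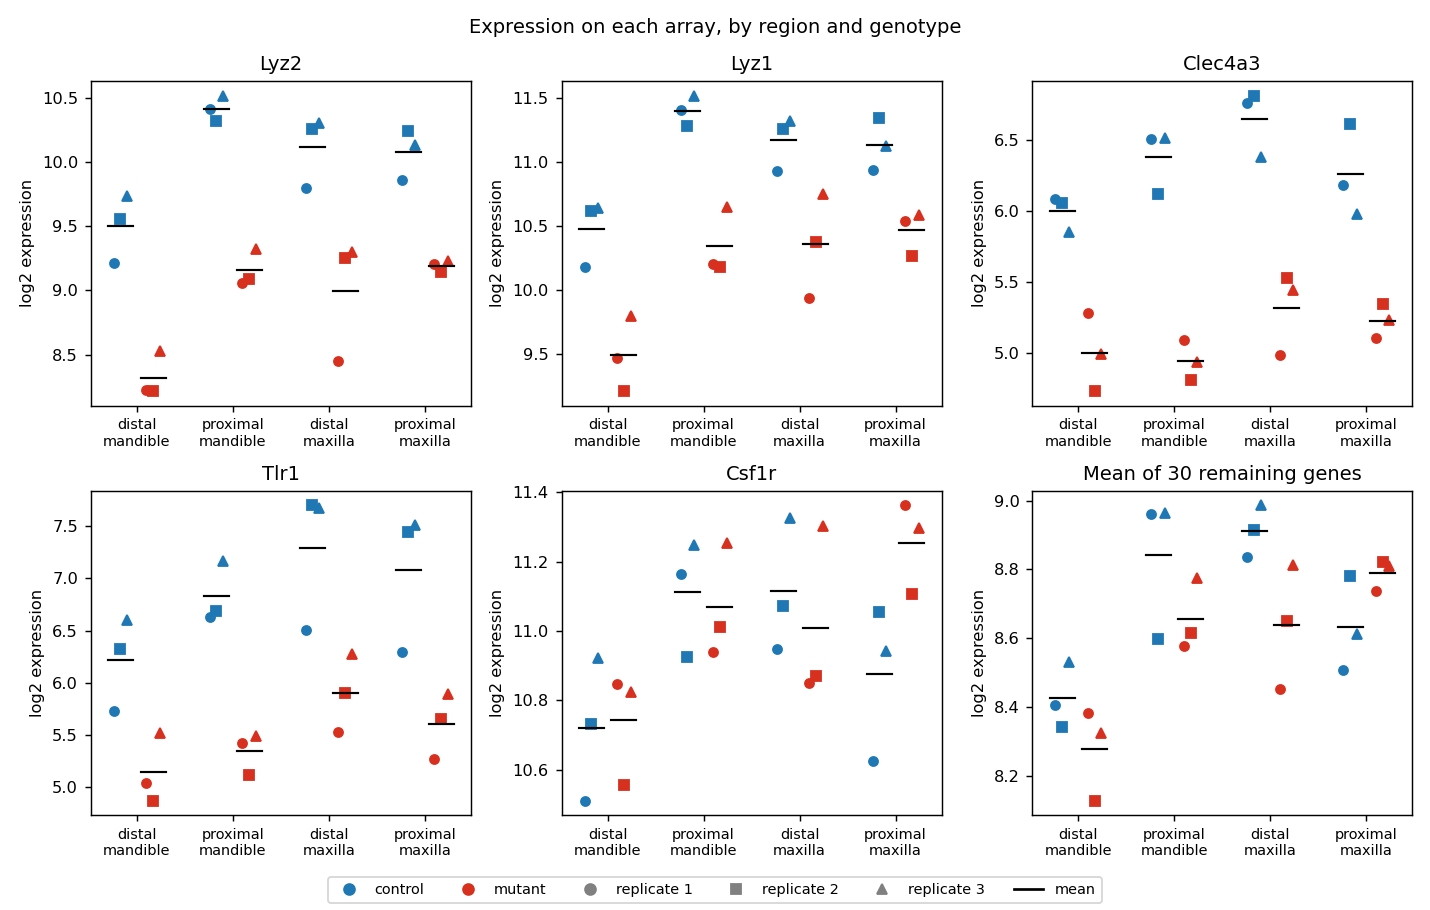
Log2 expression on each array, by region, for Lyz2, Lyz1, Clec4a3, Tlr1, Csf1r and the mean of the 30 remaining tested genes (blue, control; red, mutant; symbol, replicate number; line, mean of 3 arrays). For the first 4 panels the mutant points lie below the control points in each region, while the Csf1r points overlap in 3 regions and lie higher in mutant proximal maxilla.

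The 4 genes were also read relative to the rest, as a description, since they are the ones with the largest falls. The mean of the 30 remaining tested genes was subtracted on each array. That mean was 8.59 in mutants and 8.70 in controls, a difference of -0.11. After the subtraction Tlr1 differed by -1.25, Clec4a3 by -1.09, Lyz2 by -0.997 and Lyz1 by -0.77. In each region the subtracted mutant values of the 4 genes stayed below the control values. The range for Lyz2 was 0.81 to 1.72 in controls and -0.16 to 0.60 in mutants.

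The 4 genes lie at 3 places in the genome. Lyz1 and Lyz2 are next to each other on chromosome 10. Their nearest tested neighbours on either side were Yeats4 at 0.00 and Cpsf6 at -0.07, neither called. Clec4a3 lies on chromosome 6 in a cluster of lectin genes. The next tested genes, Clec4a2 (-0.40, adjusted p = 0.00067) and Clec4n (-0.33, adjusted p = 0.00379), also fell. Necap1, the nearest tested gene on the other side, stood at -0.03. Tlr1 lies on chromosome 5, where its nearest tested neighbours were Klf3, which rose by 0.16, and Fam114a1 at 0.00. Genes that were not tested may lie between any of these neighbours.

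The 250 bases before the transcription start site were read for the 4 genes from RefSeq's GRCm38.p6 sequences, which held 26 of the 35 genes. The lysozyme pair is shown first because its probe sets may not tell the genes apart: Lyz2 at chr10:117282273-117282522 and Lyz1 at chr10:117292869-117293118, both on the minus strand, printed 5' to 3' and ending at the base before the start site, with the longest run they share in capitals.
Lyz2: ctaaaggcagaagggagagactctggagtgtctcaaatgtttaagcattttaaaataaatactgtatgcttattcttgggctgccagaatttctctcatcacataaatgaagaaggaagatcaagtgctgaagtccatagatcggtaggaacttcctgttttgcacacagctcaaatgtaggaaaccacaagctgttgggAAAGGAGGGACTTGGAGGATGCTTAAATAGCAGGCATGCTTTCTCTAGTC
Lyz1: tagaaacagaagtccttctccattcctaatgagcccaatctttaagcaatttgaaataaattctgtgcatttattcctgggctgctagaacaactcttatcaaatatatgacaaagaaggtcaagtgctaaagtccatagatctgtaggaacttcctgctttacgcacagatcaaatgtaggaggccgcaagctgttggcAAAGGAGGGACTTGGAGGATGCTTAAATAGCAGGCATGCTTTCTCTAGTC
In an alignment the pair was identical at 200 of the 250 bases, which is 80.0%, and the shared run of 50 bases reached the start site in both.

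The upstream bases were searched on both strands for the core letters of a PU.1 site, GAGGAAGT, since PU.1 is the factor named above for its part in macrophage identity. A match was found in 3 of the 26 genes, C1qc, Tlr1 and Pf4, and in 2.79% of 27025 genes with such sequences. Tlr1 and Clec4a3 are shown as the other genes that fell most, and C1qc as a gene with the core that was not called. They lie at chr5:64933559-64933808 (Tlr1, minus strand), chr6:122952265-122952514 (Clec4a3, plus strand) and chr4:136892915-136893164 (C1qc, minus strand), and capitals mark the core, read on the opposite strand in C1qc.
Tlr1: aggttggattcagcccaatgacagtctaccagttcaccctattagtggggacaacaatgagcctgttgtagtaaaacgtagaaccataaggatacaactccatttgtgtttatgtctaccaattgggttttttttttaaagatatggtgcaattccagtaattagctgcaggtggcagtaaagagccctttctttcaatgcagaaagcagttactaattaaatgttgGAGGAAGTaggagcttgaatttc
Clec4a3: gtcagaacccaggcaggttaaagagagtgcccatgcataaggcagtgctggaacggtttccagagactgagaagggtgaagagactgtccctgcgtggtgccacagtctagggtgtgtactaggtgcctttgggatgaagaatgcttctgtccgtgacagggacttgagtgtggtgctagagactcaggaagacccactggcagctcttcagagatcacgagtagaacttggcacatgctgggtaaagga
C1qc: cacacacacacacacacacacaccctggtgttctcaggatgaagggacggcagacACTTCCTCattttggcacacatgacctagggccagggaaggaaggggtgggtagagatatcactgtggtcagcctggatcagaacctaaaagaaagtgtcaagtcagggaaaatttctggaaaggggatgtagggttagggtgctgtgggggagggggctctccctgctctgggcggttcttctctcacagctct
The core began at position -23 from the start site in Tlr1, at -195 in C1qc and at -10 in Pf4. Tlr1 and Clec4a3 each have a second start site in the table, and neither held the letters upstream of it. Among these matches Tlr1 differed by -1.36, Pf4 by -0.26 and C1qc by -0.02. The letters are a description and were not tested as binding sites.

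Among the remaining genes, Csf1r, Spi1 and the C1q chains were not called. Csf1r read 10.51 to 11.33 (median 10.95) on control arrays and 10.55 to 11.36 (median 10.98) on mutant arrays. Its ranges overlapped almost whole, and the difference was 0.06 ± 0.0748 (adjusted p = 0.549). Spi1 stood at -0.10 (adjusted p = 0.195). The 3 chains of C1q, which tags dying cells for uptake, stood at -0.08 for C1qa, -0.14 for C1qb and -0.02 for C1qc. Other C1qb probe sets above the filter gave 0.15 and 0.38, neither called. Both are of the _x_at type that may bind other transcripts. Adgre1, the F4/80 antigen of mouse macrophages, stood at -0.13 (adjusted p = 0.119, and 0.0492 with centred arrays), and Cd68, a lysosomal glycoprotein, at -0.06. Averaged over the 3 regions other than the proximal maxilla, Adgre1 (-0.24, adjusted p = 0.0186) and C1qb (-0.28, adjusted p = 0.0285) were lower. These regions were chosen after the values were seen, so the adjusted p-values from them are a description and not a test. In the average over all regions neither Adgre1 (adjusted p = 0.119) nor C1qb (adjusted p = 0.164) was called.

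Phagocytic and surface receptors were divided. Fcgr1, the high-affinity receptor for immunoglobulin G, read 7.32 to 8.27 (median 7.94) in controls and 6.91 to 7.98 (median 7.60) in mutants. The ranges overlapped, and it fell by 0.40 on the log2 scale (adjusted p = 0.00064, and 0.0492 with the random block), with a second probe set at -0.11. The signalling chains Tyrobp (-0.25, adjusted p = 0.00447) and Fcer1g (-0.18, adjusted p = 0.0287) fell as well, but were not called with the random block (0.0938 and 0.227). Fcgr3, a low-affinity Fc receptor that uses the Fcer1g chain, stood at -0.19, Trem2, a lipid receptor that signals through Tyrobp, at -0.10, and the mannose receptor Mrc1 at -0.16, none called. Cx3cr1, the receptor for the chemokine fractalkine, was higher by 0.18 (adjusted p = 0.032, and 0.315 with the random block). Its second probe set, below the filter on every array, gave -0.11. Cd14, a co-receptor for bacterial lipopolysaccharide, stood at 0.05.

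The other Toll-like receptor genes were not called. Tlr2, its partner, stood at 0.14 (adjusted p = 0.176) and Tlr7, a sensor of single-stranded RNA, at 0.03 (adjusted p = 0.781). Tlr7 was above the filter percentile on 4 arrays, 2 of each genotype. Ly86, which binds the Toll-like receptor homologue Cd180, stood at -0.02.

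Genes of the lysosome and of microbial killing moved in both directions apart from the lysozymes. Cybb, the catalytic subunit of the phagocyte NADPH oxidase, encoded on the X chromosome, read 6.58 to 7.66 (median 7.37) in controls and 6.09 to 7.47 (median 7.08) in mutants. These ranges overlapped and Cybb fell by 0.34 (adjusted p = 0.00111, and 0.0652 with the random block), with a second probe set above the filter at -0.10. Ncf1, the organising subunit of that oxidase, stood at 0.09, and its second probe set above the filter at -0.13. Laptm5, a lysosomal membrane protein of blood cells, was higher by 0.26 (adjusted p = 0.00869, and 0.187 with the random block). The Laptm5 probe set read here is of the _x_at type that may bind other transcripts. Of its other probe sets above the filter, the differences were 0.24, -0.03 and -0.06. Ctss, the protease cathepsin S, was higher by 0.14 (adjusted p = 0.0272, and 0.282 with the random block), and Mpeg1, the pore-forming protein perforin-2, stood at 0.13 without a call.

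Of 7 genes of the leukocyte surface and cytoskeleton tested, 6 fell (15.5% of all genes did) and Adgre1 was not called, with a median of -0.33. With the random block 2 of the 7, Lst1 and Coro1a, were lower. Lst1, a leukocyte membrane adaptor, read 8.57 to 9.28 (median 8.78) in controls and 7.95 to 8.84 (median 8.37) in mutants. The upper mutant arrays overlapped the lower control arrays, and Lst1 fell by 0.44 (adjusted p = 0.000131, and 0.0108 with the random block). Coro1a, an actin regulator of leukocytes, read 9.54 to 10.38 (median 10.13) in controls and 9.45 to 10.21 (median 9.60) in mutants. Coro1a fell by 0.41 (adjusted p = 0.000946, and 0.0465 with the random block), with a second probe set at -0.22. Ptprc, the CD45 phosphatase of all leukocytes, fell by 0.34, Aif1, the actin-binding protein Iba1, by 0.33, the tetraspanin gene Cd53 by 0.27, and Itgb2, the beta chain shared by leukocyte integrins, by 0.23. These last 4 were not called with the random block (adjusted p = 0.0502 to 0.251). Itgam, the partner of Itgb2 that failed the filter, read 5.22 in controls and 4.93 in mutants. Pf4, a platelet chemokine gene that some macrophages also express, fell by 0.26 (adjusted p = 0.0201, and 0.223 with the random block).

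Of the 15 genes that fell, 10 were called lower whichever replicate was left out (Tlr1, Clec4a3, Lyz2, Lyz1, Lst1, Coro1a, Fcgr1, Cybb, Ptprc and Aif1). None of the 3 higher genes, Cx3cr1, Ctss and Laptm5, kept its call in all 6 such fits. Without mutant replicate 3 or mutant replicate 2, or without control replicate 2, 1 of the 34 was higher, in place of 3.

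Within regions, Clec4a3 and Lyz2 were lower in all 4, Tlr1 in all but the distal mandible and Lyz1 in all but the proximal maxilla. In the distal mandible 4 of the 34 were lower (0.534% of all genes), Lyz2, Lyz1, Clec4a3 and Cybb, and limma called 0 higher (0.361%, and 0 of the 34 at an unadjusted p under 0.05). In the proximal mandible 5 were lower (2.51% of all genes), the 4 genes and Lst1, and Ncf1 was higher (2.85%), a call that held without mutant replicate 2 and was lost without any other replicate. Ncf1 was not called there with the random block (adjusted p = 0.059) or with the mean of all probe sets. In the distal maxilla 0 were higher (3.02%, and 0 of the 34 at an unadjusted p under 0.05) and 8 were lower (4.06%), which added Fcgr1 (-0.55), Tyrobp (-0.50), Aif1 (-0.57) and Lst1 (-0.56) to the 4 genes. In the proximal maxilla 3 were lower (2.38%), Clec4a3, Tlr1 and Lyz2, and 3 were higher (3.32%), Ctss, Laptm5 and Mpeg1. The medians of the remaining 30 were -0.14, -0.22, -0.32 and 0.17 in these regions, against 0.02, 0.00, 0.01 and 0.02 over all genes. With 3 arrays a side these counts depended on single replicates. The distal mandible count of 4 went to 0 without control replicate 2 or 3, 1 without control replicate 1, and 2 without mutant replicate 1 or 3, and was 7 with mutant set 2 alone. The distal maxilla count of 8 went to 1 without control replicate 3, to 3 without control replicate 1, control replicate 2 or mutant replicate 1, and to 13 without mutant replicate 2. The proximal mandible count of 5 was 2 without control replicate 3, and both proximal maxilla counts of 3 went to 1 without control replicate 3. The higher count there was also 1 without control replicate 1, mutant replicate 1 or mutant replicate 3, and the lower count 1 without control replicate 2.

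**Figure D3:**
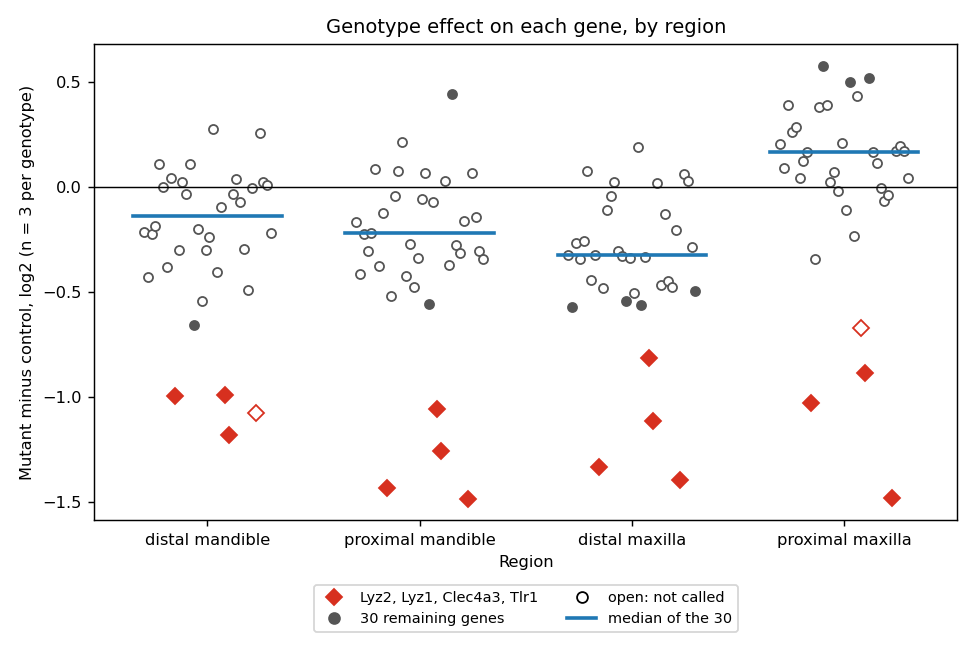
Mutant minus control log2 difference of each tested gene in each region (3 arrays against 3; red diamonds, Lyz2, Lyz1, Clec4a3 and Tlr1; grey circles, the 30 remaining genes; filled, called; blue line, median of the 30). The diamonds lie low in each region, whereas the median of the 30 is below 0 in 3 regions and at 0.17 in the proximal maxilla.

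In the proximal maxilla most of the remaining genes read higher in mutants. There 23 of the 30 read higher in mutants, against 10, 7 and 6 in distal mandible, proximal mandible and distal maxilla. Ctss read 10.78, 10.89 and 10.85 in control and 11.51, 11.48 and 11.27 in mutant proximal maxilla. The genotypes did not overlap, and the difference was 0.58 ± 0.0969 (adjusted p = 0.00295, and 0.0104 with the random block). Such a separation, mutant arrays all above control arrays in at least 1 region, was seen in 28.7% of all genes. Mpeg1 read 8.85, 9.10 and 9.16 in controls and 9.45, 9.57 and 9.65 in mutants there, and Laptm5 read 9.51, 9.87 and 9.51 against 10.17, 10.08 and 10.14. Both were apart as well, by 0.52 for Mpeg1 (adjusted p = 0.0479) and 0.50 for Laptm5 (adjusted p = 0.0438), but neither was called with the random block (0.0854 and 0.0876). Csf1r read 10.63, 11.05 and 10.94 in controls and 11.36, 11.11 and 11.30 in mutants, higher on each mutant array and not called (0.38, adjusted p = 0.145). C1qa, likewise apart, read 9.62, 9.62 and 9.44 against 9.92, 9.88 and 10.04. When the genotype average was taken over the 3 other regions, a choice made after these values were seen, 18 of the 34 were lower and limma called 0 higher (1 at an unadjusted p under 0.05), against 1714 lower and 1818 higher of all genes. With mutant set 2 alone 1 gene was higher in the proximal maxilla in place of 3.

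The difference between regions in the genotype effect was itself tested. Neither the jaw term nor the end term called any of the 13850 genes (480 and 430 at an unadjusted p under 0.05, of which 2 and 6 were among the 34, and 0 called with the random block). The term for the jaw-by-end pattern, added after seeing the data, also called 0 genes (532 at an unadjusted p under 0.05, 8 among the 34). Its values were above 0 for 32 of the 34 (median 0.48, against 0.03 for all genes). The proximal maxilla pattern is therefore a description of these 6 arrays that the tests of the difference did not call.

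The second question was how the genes vary along the jaws whatever the genotype. Levels were lower in the mandible than in the maxilla for 17 of the 34 and higher for 1 (10.7% and 7.69% of all genes). They were lower at distal than at proximal ends for 15 and higher for 2 (15.4% and 15.1% of all genes). The largest jaw differences were those of Tlr1 (-0.59), Ly86 (-0.56), Fcgr3 (-0.48), Mpeg1 (-0.44) and Cd53 (-0.37), and the gene higher in the mandible was Ncf1 (0.24), a call lost without control replicate 3 and with mutant set 2 alone. The largest end differences were those of Mpeg1 (-0.58), Lyz2 (-0.47), Lyz1 (-0.46), C1qa (-0.46), Cybb (-0.44) and Ctss (-0.42). Cd14 (0.35, adjusted p = 0.000359) and Pf4 (0.30, adjusted p = 0.00715) were higher at distal ends. Mrc1 stood at 0.31 for distal minus proximal (adjusted p = 0.0749, and 0.0209 with the random block). Leaving out control replicate 2 took the mandible count from 17 to 6, and leaving out mutant replicate 2 took it to 11. Without control replicate 3 the count higher at distal ends was 1 in place of 2.

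**Figure D4:**
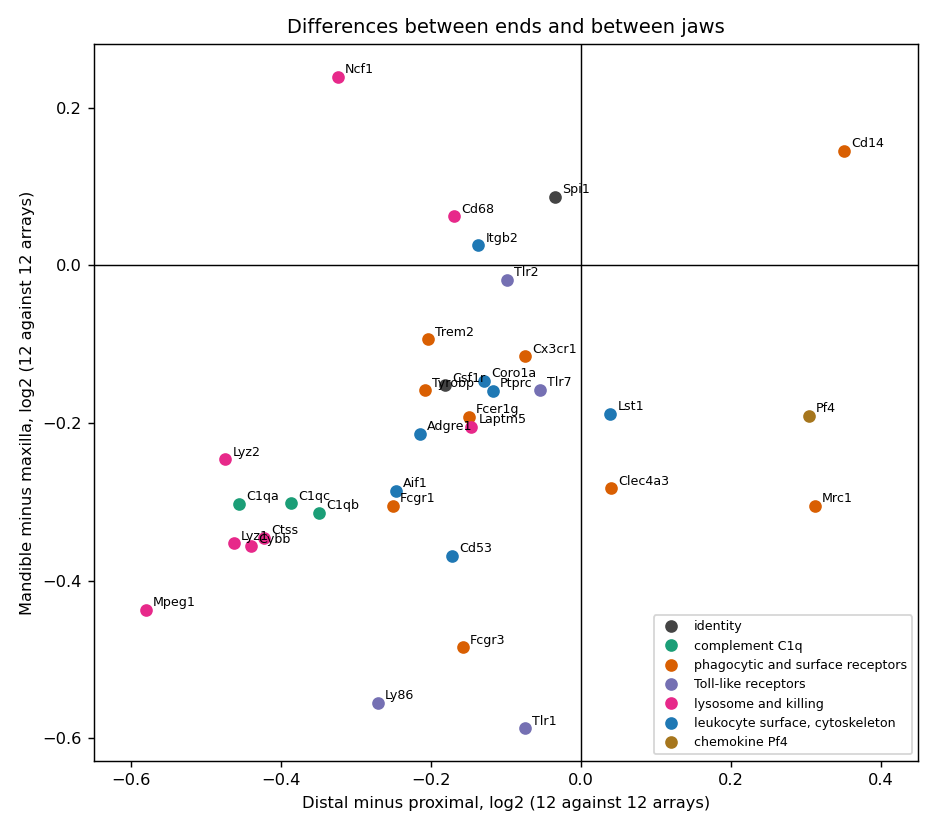
Distal minus proximal difference (horizontal axis, log2, 12 arrays against 12) against mandible minus maxilla difference (vertical axis, log2, 12 against 12) for the 34 tested genes, coloured by role. Most genes lie to the lower left, with Cd14, Pf4 and Mrc1 to the right and Ncf1 above.

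Most of this came from a single region, the distal mandible. There 14 of the 35 genes had their lowest level of the 4 regions in all 6 sets, which 6.27% of all genes did. They were Csf1r, C1qa, C1qb, Fcgr1, Fcgr3, Tyrobp, Ly86, Lyz1, Lyz2, Ctss, Mpeg1, Cybb, Cd53 and Aif1. C1qa read 9.26, 8.93 and 9.13 in control distal mandible and 10.05, 9.44 and 9.81 in control proximal mandible. Its control maxilla arrays read 9.69, 9.63 and 9.59 distally and 9.62, 9.62 and 9.44 proximally. The control distal mandible arrays were below all other control arrays. Mutant C1qa read 9.01, 8.58 and 9.05 in distal mandible and 9.92, 9.88 and 10.04 in proximal maxilla, its lowest and highest regions. Mrc1, Cd14 and Pf4 were at their lowest in the distal mandible in 0 of 6 sets.

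In control arrays alone 20 of the 34 were lower in distal mandible than in distal maxilla (5.70% of all genes, with 3.51% higher), and 17 were lower in distal than in proximal mandible (7.08%, with 6.24% higher). At the proximal ends Ncf1 was higher in mandible than in maxilla (0.53, adjusted p = 0.0172) and was the only gene of the 34 called (0.968% of all genes were higher and 1.65% lower). Between the ends of the control maxilla Pf4 was the only gene called, higher distally (0.73, adjusted p = 0.00878). Of all genes 3.37% were higher and 2.69% lower. With the replicate number within each genotype, that is the set, as a fixed block, 7 of the 34 were higher distally (6.53% of all genes). Pf4 read 9.95, 10.13 and 10.51 in control distal maxilla and 9.18, 9.82 and 9.39 in control proximal maxilla, without overlap. Neither Ncf1 nor Pf4 kept these calls without control replicate 1 or 3. In mutant arrays 11 of the 34 were lower in distal mandible than in distal maxilla (3.21% of all genes, with 1.71% higher) and 16 lower in distal than in proximal mandible (8.33%, with 7.57% higher). With the random block the counts between distal mandible and distal maxilla were 28 in controls and 18 in mutants, and with the set as a fixed block 27 and 14. At the mutant proximal ends Ncf1 was higher in mandible (0.86, adjusted p = 0.000199; 2.73% of all genes) and Ctss lower (-0.37, adjusted p = 0.0269; 2.96%). With mutant set 2 alone neither was called, and the count lower went to 0 without control replicate 1 or 3 or mutant replicate 1 or 2, to 2 without mutant replicate 3, to 3 with the replicate number as a block and to 4 with the random block. In the mutant maxilla C1qa (-0.58), Ctss (-0.51) and Mpeg1 (-0.58) were lower distally (2.66% of all genes, with 2.48% higher), and with the random block 6 were. The control counts rested on single control replicates, since the 20 went to 9, 7 and 2 without control replicate 1, 2 and 3, and the 17 to 3, 13 and 7. The mutant counts did likewise, the 11 going to 14, 3 and 2 without mutant replicate 1, 2 and 3, and the 16 to 17, 9 and 8. The 11 also went to 7 without control replicate 1 or 3, and with mutant set 2 alone the counts were 0 and 5. The 3 of the mutant maxilla went to 1 without mutant replicate 1 or control replicate 3 and to 0 without mutant replicate 2.

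**Figure D5:**
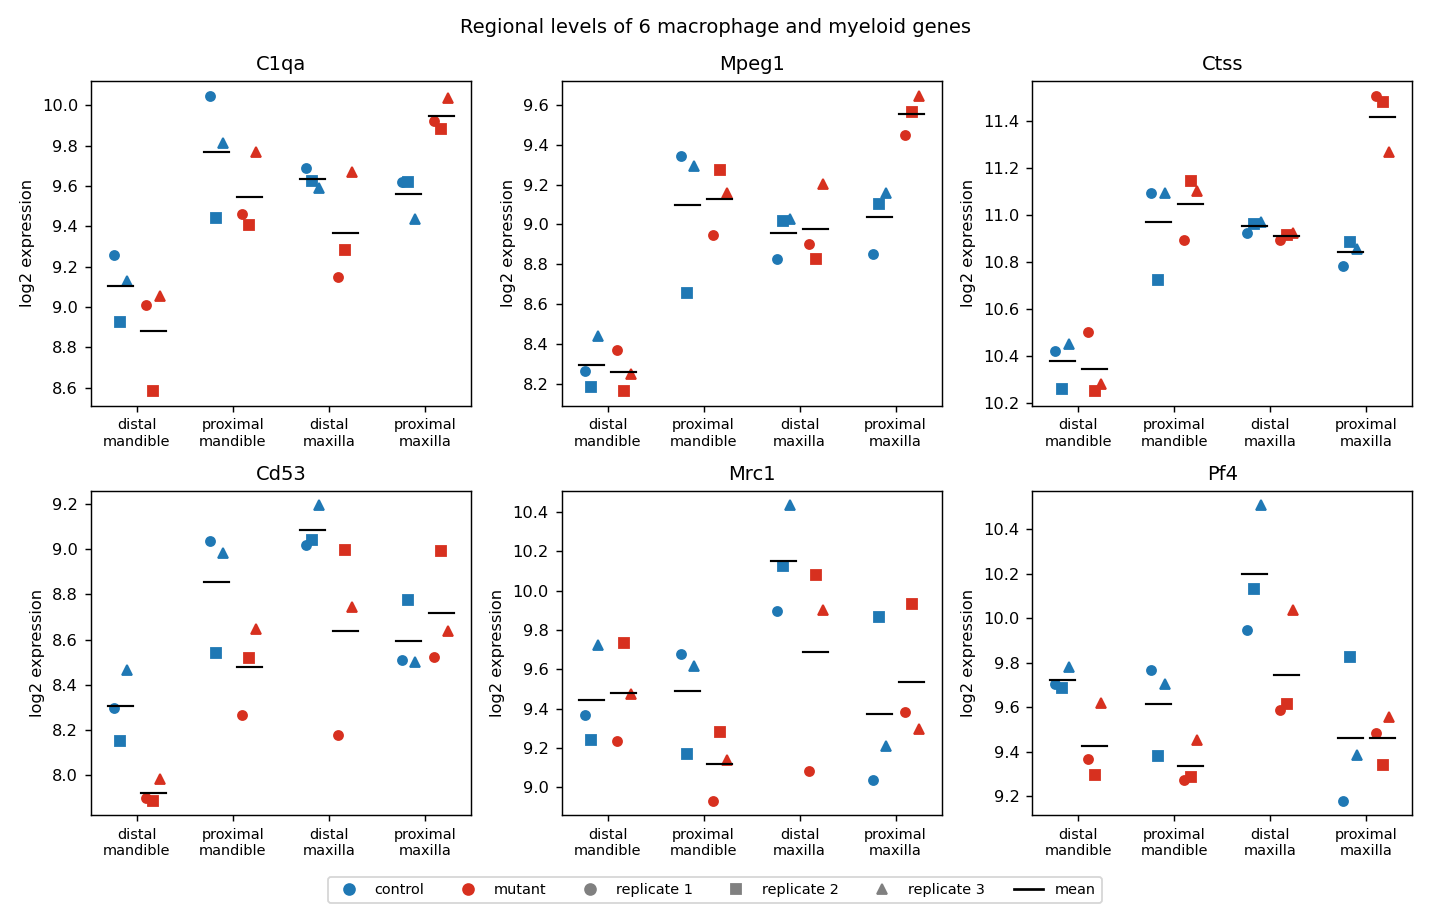
Log2 expression on each array, by region, for C1qa, Mpeg1, Ctss, Cd53, Mrc1 and Pf4 (blue, control; red, mutant; symbol, replicate number; line, mean of 3 arrays). C1qa, Mpeg1, Ctss and Cd53 have their lowest means in the distal mandible in both genotypes, and Mrc1 and Pf4 have their highest means in the distal maxilla.

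The jaw-by-end term, distal minus proximal in the mandible less the same in the maxilla, was added after seeing the data. It was below 0 for all 34 genes and called for 15 (3.44% of all genes, with 2.79% above 0), with a median of -0.45 against 0.00 for all genes. Ncf1 (-0.91), Lyz1 (-0.85), Ptprc (-0.83), Lyz2 (-0.80), Cd53 (-0.76) and Cybb (-0.73) gave the largest values. The count was 3 without control replicate 1, 4 without control replicate 3, 7 without mutant replicate 2, 5 without mutant replicate 3 and 5 with mutant set 2 alone. In control arrays alone 12 were called (1.60% of all genes, with 1.13% above 0) and in mutant arrays Ncf1 was (0.809%, with 0.513% above 0), a difference between genotypes that was not called for any gene, as given above. With the set as a fixed block the counts were 23 in controls and 2 in mutants. The control count went to 0 without control replicate 1 or 3 and to 3 without control replicate 2, and the mutant call was lost without mutant replicate 3.

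Other genes of the lineage were described from lists. Of all genes, 33.7% were called in either direction on average over the regions, and the counts below are to be read against that. With the random block that share was 11.6%, and with 1 value per set 0.578%. A gene of these lists given without such a result need not be called there. Of 46 further macrophage genes tested, 9 fell and 6 rose (median -0.05). The chemokine receptor Ccr2, which marks monocytes, fell by 0.68, and the small surface glycoprotein genes Cd52 and Cd48 by 0.59 and 0.57, all 3 also called with the random block. The growth factor precursor Grn (0.19) and the transcription factor Maf (0.45) rose, also with the random block. Of 11 C-type lectin receptors listed, 4 were tested. Clec4a2, Clec4n and Clec7a fell by 0.40, 0.33 and 0.38, and Clec4a3 fell as given above. Clec4a3, like Tlr1, passed the filter through control arrays alone, so counts that hold either gene are a description. Of 13 Toll-like receptor family genes, Tlr1 fell and Tlr13, a sensor of bacterial ribosomal RNA, rose by 0.27. Of 8 interferon response genes, limma called 0, with 3 at an unadjusted p under 0.05.

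Of 10 growth factors and chemokines tested, Il33, an alarmin cytokine, fell by 0.98 (adjusted p = 2.02e-05) and Ccl2, a chemokine that recruits monocytes, by 0.26. Csf1 and Il34, the ligands of Csf1r, stood at 0.04 and 0.00. Of 8 myeloid transcription factors, Maf and Cebpb rose (0.45 each) and Fli1 (-0.35) and Irf5 (-0.31) fell.

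Other blood and vessel cells were followed beside these genes. Of 7 neutrophil genes tested, Mpo and S100a9 fell (-0.72 and -0.65), all 7 were below 0, and the mean of the list ranged from 6.39 to 8.75 over control and from 6.59 to 8.06 over mutant arrays. Lyz2 is also expressed by neutrophils. Between ends 5 of the 7 were lower distally (15.4% of all genes were), S100a9 at -1.98 and S100a8 at -1.86. Of the 34 macrophage and myeloid genes 15 were lower distally, Lyz2 among them. Red cell genes included 3 of 7 that fell, Hba-a2 (-0.79), Hbb-bh1 (-0.58) and Hba-x (-0.31), with list means of 10.29 to 10.90 in controls and 9.91 to 10.68 in mutants. Of 8 osteoclast genes, Itgb3 (0.46) and Atp6v0d2 (0.44) rose and Nfatc1 (-0.74) fell. Endothelial genes gave 4 higher and 6 lower of 14, lymphocyte genes 1 lower of 7, mast cell genes 1 higher of 5, platelet genes Pf4 of 6, and jaw mesenchyme genes 1 higher of 12. The part of these cells in the falls of the 4 genes was not tested.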

How the data were processed

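Jaw RNA (RNeasy extracts, biotin-labelled cRNA, per the labels) was read on 24 arrays. The deposited log2 values were made by the authors with RMA, per the submitters' processing notes; for its version, the arrays normalised together and any pooling, the sources used here give nothing. Of 45101 probe sets, 34958 name 1 symbol, 932 several and 9211 none. Genes were named from the platform annotation, and gene identifiers of 34754 probe sets matched RefSeq (GRCm38.p6).

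The brightest single-symbol probe set stood for each gene. limma 3.58.1 (R 4.3.3) was fitted to 8 group means with 16 residual degrees of freedom, lmFit and eBayes, and Benjamini-Hochberg adjustment over 13850 genes; all adjusted p-values come from limma. The script was tested on simulated data. Alternatives were the set as a random block (correlation 0.40, statmod 1.5.0), 1 value per set, centring, quantile normalisation, filters, probe sets, covariates and left-out replicates. The replicate number was also fitted as a fixed block. For genotype differences this was the number itself, and for differences between regions the number within each genotype, that is the set. Distal and proximal arrays of a number deviated together (correlations of 0.22 to 0.69), so the numbers were read as pairing the ends. This rests on the values. Between jaws the correlations were 0.11 to 0.70 at distal ends and 0.004 to 0.62 at proximal ends. Between genotypes they were -0.13 to 0.40. These ranges overlap, so whether the numbers pair jaws or genotypes is uncertain. The main test paired neither of these, nor the ends. With the set as a fixed block, 25 of the 34 in controls were lower in distal than in proximal mandible (12.3% of all genes). In mutants 20 were (13.9%), and in each genotype 1 was higher (11.5% and 14.6%). The number of arrays limits the precision. The genes and lists were chosen with earlier results of these data known, and all 35 were named by rule. Proteins and probe positions were not used here.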

Additional observations from a re-analysis of the deposited data

Results flagged for a closer look

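In 3 genes all mutant arrays lay on opposite sides of the control arrays in different regions. For single genes this opposition was not tested beyond the interaction terms, which called none. Of all genes, 24.8% had all mutant arrays below all control arrays in at least 1 region, and 28.7% had all above. The share of all genes with both was not counted. C1qb differed by -0.34 in the distal maxilla and by 0.26 in the proximal maxilla. Trem2 differed by -0.30 in the proximal mandible, by -0.29 in the distal maxilla and by 0.17 in the proximal maxilla. Ctss differed by -0.0418 in the distal maxilla, where the genotypes were apart by a narrow margin, and by 0.58 in the proximal maxilla. Groups of 3 arrays were not examined for single outlying samples.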

How the results depend on the processing

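Called differences of single genes kept their direction in every fit tried, and the values that changed sign (32 in all) were uncalled in either fit. For the average genotype effect these were Csf1r at -0.0095 without control replicate 1, -0.0131 without mutant replicate 3 (up to 0.1396 with other replicates left out), -0.0852 with the Gapdh 3' minus 5' difference as a covariate and -0.0703 with mutant set 2 alone, and C1qc at 0.0107, 0.03 and 0.0339 without control replicate 1, control replicate 3 and mutant replicate 2 (down to -0.1019 with others). Ly86 gave 0.0348, 0.0011 and 0.0571 without control replicate 2, control replicate 3 and mutant replicate 2 (down to -0.1047), and Tlr7 gave -0.0055 with centred arrays, -0.0488 without mutant replicate 3 (up to 0.0957), -0.1295 with the Gapdh covariate and -0.1138 with mutant set 2 alone. Mrc1 gave 0.079 with the Gapdh covariate and 0.143 with mutant set 2 alone, Cd14 -0.0363 and Cd68 0.105 without mutant replicate 2 (Cd68 down to -0.1686), C1qb 0.1298 and Ncf1 -0.1172 with the mean of all probe sets, and Ncf1 also -3e-04 with the Gapdh covariate and -0.0257 with mutant set 2 alone. Between jaws Trem2 gave 0.0066 with the mean of all probe sets, Tlr2 0.0023 with centred arrays, 0.0531 and 0.005 without control replicate 2 and mutant replicate 3 (down to -0.0611) and 0.0207 with the Gapdh covariate, and Itgb2 -0.0196, -0.0205 and -0.0386 without control replicate 3, without mutant replicate 1 and with mutant set 2 alone (up to 0.0616). Between ends Spi1 gave 0.0033 without mutant replicate 2 (down to -0.0588) and Lst1 -0.0172 with the Gapdh covariate.

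Of the counts, the 15 lower genes of the genotype average were 7 with the random block and 2 with 1 value per set, and 10 to 16 with a replicate left out. The 3 higher genes were 0 with the random block, with 1 value per set, with the Gapdh covariate and over the 3 regions other than the proximal maxilla, 1 with the mean of all probe sets, centred arrays or mutant set 2 alone, and 1 to 2 with a replicate left out. With the replicate number as a block the average gave 4 higher and 15 lower. With the set as a fixed block the jaws gave 2 higher and 22 lower and the ends 3 and 18. The replicate number as a block and the Gapdh covariate each gave 8 lower genes in the proximal mandible in place of 5. The Gapdh covariate gave 15 in the distal maxilla in place of 8. Mutant set 2 alone gave 7 in the distal mandible in place of 4. With a replicate left out, lower counts ran from 0 to 5 in the distal mandible, 2 to 6 in the proximal mandible, 1 to 13 in the distal maxilla and 1 to 4 in the proximal maxilla. The 3 higher genes of the proximal maxilla were 1 with the random block, the mean of all probe sets, quantile normalisation, no filter, the Gapdh covariate or mutant set 2 alone, and 1 to 3 with a replicate left out. Between jaws 6 to 19 were lower, between ends 1 to 3 were higher with a replicate left out and 1 with mutant set 2 alone, and the jaw-by-end count ran from 3 to 16 and was 5 with mutant set 2 alone. The causes were not tested.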
